A study of Rattus norvegicus with 70 samples.

Results

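The depot difference at baseline was measured in unexposed female rats, as the 5 subcutaneous adipose tissue (SAT) libraries numbered 2, 6, 8, 10 and 12 against the 6 visceral adipose tissue (VAT) libraries numbered 2, 4, 6, 8, 10 and 12. These 11 libraries, of 70 in the series, were chosen by their labels: female, sham, and one of these depots. The series asked what inhaled PCB 52, a polychlorinated biphenyl, does to gene expression in the fat of adolescent rats. All animals were Sprague-Dawley rats that arrived at 28 days of age and were accustomed to a nose-only apparatus. Exposure of females began at 42 days of age and lasted 4 h daily for 28 days. The labels do not say what the sham rats breathed, and they do not name the anatomical sites of SAT and VAT. Samples with an RNA integrity number below 8 were left out by the submitters, and SAT 4 was not analysed here. For tests of the difference itself, 6 SAT and 6 VAT libraries of PCB 52 females were used, and 6 SAT and 6 VAT libraries of sham males, whose exposure period began at 39 days of age. Each depot of each sex has a count table of its own, so depot and any batch that went with it cannot be told apart.

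White fat stores triglyceride in adipocytes, which make fatty acids, esterify them and release them again by lipolysis. Depots differ in embryonic origin, and cultured fat cells are known to keep a set of positional transcription factors. Visceral depots are covered by mesothelium, the sheet of Wt1-positive cells that lines the abdominal cavity. In female rodents the mammary gland grows inside the subcutaneous fat pad, so a piece of such a pad can hold milk-duct epithelium beside adipocytes.

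The libraries held 6470081 to 8381507 counts over 15319 genes, and 3 counts corresponded to 0.358 to 0.464 CPM, the count per gene scaled to a common library size. SAT 8 stood apart from the other SAT libraries. It had 4211 genes at 0 against 1733 to 1930 in the other 4, and 27.8% of its counts lay in ribosomal protein genes against 6.99 to 9.13%. Of 9334 genes with at least 50 counts in each of the other 4 SAT libraries, 418 were at 0 in SAT 8. Its level relative to the other SAT libraries fell with the length of the gene's span in the genome: the median log2 difference was -0.44 in the quartile of genes with the shortest spans and -1.95 in that with the longest. Counts of genes called between the depots of sham females are therefore given with and without this library. All levels below are CPM scaled by the trimmed mean of M values (TMM) over the 11 libraries. The 0.358 to 0.464 CPM above is before this scaling. The TMM factor, which divides the levels, was 0.585 for SAT 8 and 0.924 to 1.19 for the other libraries. The scaling thus raised the levels of SAT 8. A log2 fold change is SAT over VAT, so a positive value is higher in SAT. A gene was called when its adjusted p (edgeR quasi-likelihood test, Benjamini-Hochberg over all genes tested) was under 0.05.

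Of 11554 genes tested, 3544 (30.7%) were called, 1987 (17.2%) higher in SAT and 1557 (13.5%) lower. Without SAT 8, 5860 of 11734 (49.9%) were called, 3018 (25.7%) higher and 2842 (24.2%) lower. The counts of each gene list below are to be read against these shares. All 3544 genes were also tested without SAT 8: 3493 were called there in the same direction and 0 in the opposite one. The median log2 fold change of all genes tested was 0.09, and 0.05 without SAT 8. The CPM ranges of the depots did not overlap for 3024 of the 11554 genes (26.2%). With the number in the title as a block, read as the same rat in both depots, 1950 genes were called, 939 higher and 1011 lower, and without SAT 8 the block gave 4835, 2324 higher and 2511 lower. VAT 4 has no SAT partner in that fit. Counts with the block are given below for some gene lists only. These libraries are of whole tissue, so fewer cells of a type and less RNA per cell cannot be told apart in any result below.

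Genes of the mature adipocyte were lower in SAT. Of 25 tested, 21 were called lower and 0 higher, with a median log2 fold change of -3.04. Without SAT 8 all 25 were lower, with a median of -2.96. Their summed level was 9737 to 15035 CPM in SAT 2, 6, 10 and 12, and 71652 to 111893 CPM in VAT. SAT 8 read 78593 CPM, inside the VAT range, but most of that sum was a single gene, Cfd, whose levels are given below. Adipoq, Plin1 and Pparg were above the floor in every library of both depots. That shows adipocyte RNA in each library and does not tell the depots apart. Adiponectin (Adipoq), the most abundant adipocyte hormone, was at 759, 620, 4316, 873 and 1180 CPM in SAT 2, 6, 8, 10 and 12, and at 5736 to 7155 CPM in VAT (median 6799). SAT 8 was the high SAT library, and the depots did not overlap. Its log2 fold change was -2.10 (SE 0.50, adjusted p = 0.00831), and -2.96 without SAT 8.

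**Figure D1:**
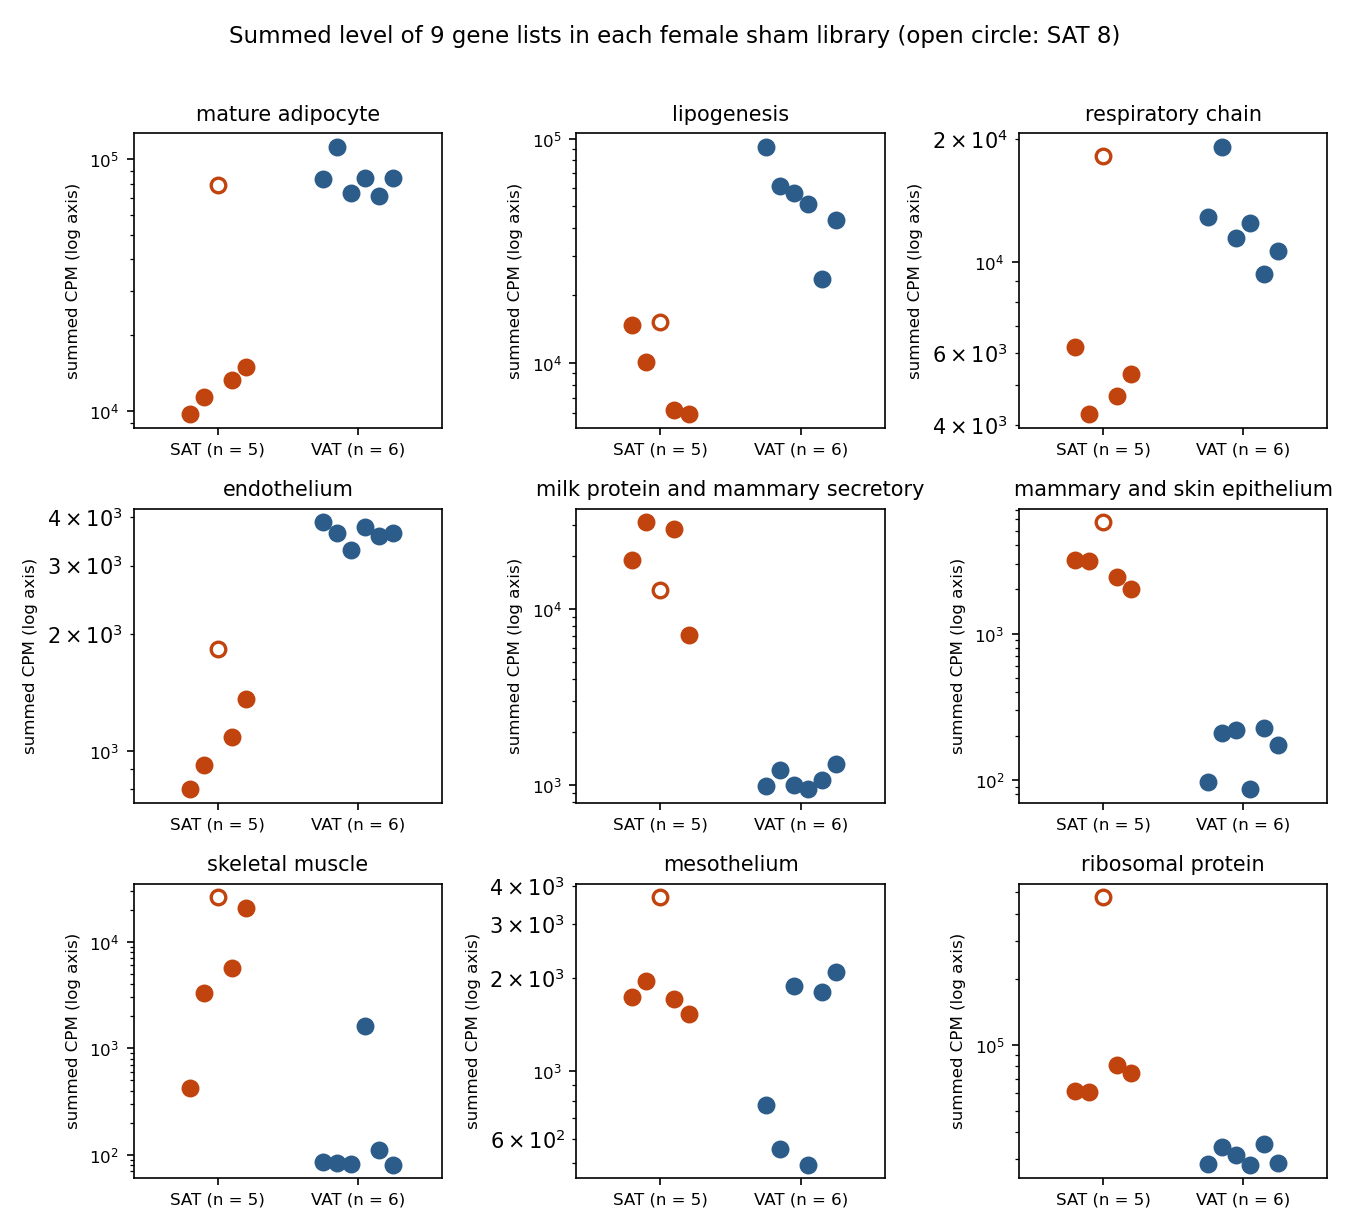
Summed CPM of 9 gene lists (log axes) in the 5 SAT and 6 VAT libraries of female sham rats, each point 1 library and the open circle SAT 8. The adipocyte sum of SAT 8 (78593 CPM, most of it Cfd) lies among the VAT libraries (71652 to 111893). Its ribosomal protein sum (475642 CPM) lies above every other library.

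SAT 8 was not high for every adipocyte gene. Perilipin 1 (Plin1), which coats the lipid droplet, was at 194, 269, 31.9, 294 and 478 CPM in SAT, with SAT 8 the lowest, and at 2797 to 3862 in VAT (median 3428). The depots were far apart, and its log2 fold change was -3.73 (SE 0.55, adjusted p = 0.000396). Pparg, the nuclear receptor that drives fat cell formation, read 42.6, 37.2, 59.9, 31.4 and 47.8 CPM in SAT against 188 to 409 in VAT (log2 fold change -2.67, SE 0.25, adjusted p = 1.83e-05). Cebpa, its partner factor, read 137 to 176 CPM in SAT and 927 to 1736 in VAT. Trarg1, a regulator of glucose transporter traffic, the glycerol channel Aqp7 and hormone-sensitive lipase (Lipe) had log2 fold changes of -3.13, -3.43 and -3.29. SAT 8 lay above the other 4 SAT libraries for 10 of the 25 genes and below them for 9. The 4 genes not called with all 11 libraries, named here after their values were seen, were Lep, Fabp4, Retn and Cfd. Leptin (Lep) read 60.9, 41.6, 458, 72.9 and 98.5 CPM in SAT and 209 to 579 in VAT. Its log2 fold change of -1.58 had an adjusted p of 0.0629, which was 4.3e-05 without SAT 8 and 0.041 with the block. Cfd, encoding adipsin, reached 46760 CPM in SAT 8 against 1012 to 3188 in the other SAT libraries and 6830 to 11660 in VAT. It thus made up most of the list's sum of 78593 CPM in SAT 8.

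Lipid handling genes followed the adipocyte list in direction. Of 19 lipogenesis genes, 15 were lower in SAT and 1 higher, with a median of -2.21 (16 lower and 1 higher without SAT 8). Acss2, which makes acetyl-CoA from acetate, read 44.1 to 108 CPM in SAT and 185 to 412 in VAT (log2 fold change -2.29, SE 0.29, adjusted p = 0.000149). The citrate carrier Slc25a1 and the sugar-sensing factor Mlxipl had log2 fold changes of -2.64 and -3.28. The exception was Scd2, a stearoyl-CoA desaturase, at 114 to 558 CPM in SAT against 14.2 to 111 in VAT (2.02, adjusted p = 0.0161). The related desaturase Scd went the other way, at 347 to 10490 CPM in SAT and 8526 to 41720 in VAT. Both desaturases were singled out after their values were seen.

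Triglyceride synthesis showed 9 of 13 tested genes lower and 1 higher in SAT (9 lower and 1 higher without SAT 8). Dgat1 and Dgat2, which catalyse its last step, had log2 fold changes of -2.57 and -3.07. Dgat2 read 138 to 388 CPM in SAT and 1337 to 3082 in VAT. Lipolysis and lipid droplet genes had 14 of 19 lower and 1 higher (16 lower and 1 higher without SAT 8), and 8 of the list's genes also stand in the adipocyte list. Cidec, a lipid droplet fusion protein, read 180 to 510 CPM in SAT and 2307 to 5514 in VAT (-3.40, SE 0.40, adjusted p = 7.78e-05). Adrb3, the beta-3 adrenergic receptor that starts lipolysis, read 2.90, 7.59, 0, 4.65 and 9.92 CPM in SAT and 135 to 248 in VAT. It was among the 15 largest differences in this direction, at -5.05 (SE 0.67, adjusted p = 0.000198). The gene that was higher was Plin2, the droplet coat of many non-fat cells, singled out after its value was seen: 298 to 828 CPM in SAT against 137 to 210 in VAT.

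Fatty acid oxidation and respiratory chain genes were lower in SAT, and their counts turned on SAT 8. Of 21 oxidation genes, 13 were lower and 1 higher, against 20 lower and 1 higher without SAT 8. Hadha, of the mitochondrial trifunctional protein, read 175 to 224 CPM in SAT and 475 to 930 in VAT (-1.68, SE 0.21, adjusted p = 0.000103). Of 34 nuclear-encoded respiratory chain genes, 14 were lower with all libraries and 33 without SAT 8, and the median moved from -0.69 to -1.19. SAT 8 lay above every other SAT library for 26 of the 34. The list's sum was 18229 CPM in SAT 8, 4248 to 6218 in the other SAT libraries and 9372 to 19192 in VAT. Sdha, a subunit of complex II, read 114 to 206 CPM in SAT and 443 to 964 in VAT (-1.89, SE 0.24, adjusted p = 0.000148).

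Thermogenic genes differed by library within VAT. Ucp1, the uncoupling protein of heat-producing fat, did not pass the filter. It was at 365 CPM in VAT 4, 224 in VAT 8 and 0 to 12.8 in the other 4 VAT libraries. In SAT it was at 0.362, 0, 0, 0.529 and 0 CPM. Of 13 tested genes of the list, 6 were lower in SAT and 1 higher (9 and 1 of 14 without SAT 8). Kcnk3, a potassium channel of adipocytes, read 20.8 to 46.5 CPM in SAT and 258 to 707 in VAT, and Cidea read 4.95 to 12.1 and 40.3 to 174. VAT 4 was the highest library for both. Cited1, a marker used for beige fat cells, was the higher one: 29.7, 40.4, 245, 24.3 and 37.4 CPM in SAT and 1.04 to 4.10 in VAT (5.19, SE 0.71, adjusted p = 0.000247). Which cells of the tissue held its RNA was not tested. Without SAT 8, VAT 4 and VAT 8, 7 of 11 tested genes were lower and 4 higher.

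Milk protein genes made up much of the largest differences toward SAT. Of 19 tested genes of milk and mammary secretion, 17 were higher in SAT and 0 lower, also without SAT 8. The 15 largest differences toward SAT included Csn1s1, Csn2, Csn3, Csn1s2a and Csn1s2b, which encode caseins. They also included Lalba, whose product is needed for lactose synthesis, and Wap, encoding whey acidic protein. Each of these 7 genes was at 0 in all 6 VAT libraries, and 8 of the list's genes were. Those 8 could pass the low-count filter only through SAT, so they could not come out lower in SAT. Csn1s1 read 11030, 10290, 840, 12670 and 2776 CPM in SAT, which is at least 108800-fold higher than the floor of 3 counts over the VAT libraries together. Csn2 read 4433, 8022, 3304, 3858 and 8.33 CPM in SAT, at least 56770-fold higher. SAT 12 was the low library for Csn2, and SAT 8 was the low one for Csn1s1. Lalba read 92.9, 1466, 5428, 1690 and 766 CPM (at least 27320-fold higher), and Wap read 10.9, 597, 402, 582 and 21.3 CPM (at least 4664-fold higher). The levels of these 4 genes thus varied widely between SAT libraries, while Csn1s2b stayed between 28.9 and 65.5 CPM, and no SAT library was at 0 for any of the 5. The water channel Aqp5 and the tight junction gene Cldn3 were also among the 15, at least 2134-fold and at least 2138-fold higher. With genes at 0 in VAT set to this bound, the list's median log2 fold change was 8.80. The list's genes not called were Xdh (-0.24), which adipose tissue also expresses, and Lpo (0.57).

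Prolactin acts on casein genes through STAT5, whose binding motif is TTCNNNGAA. The 150 bases before the annotated start of 4 casein genes are shown, 5′ to 3′ on the gene's strand, because these genes were at 0 in VAT and hold the motif in this window. Csn3, Lalba and Wap had the same pattern of expression and no match in these 150 bases. They are from RefSeq (GRCr8) at chr14:20638850-20638999 for Csn1s1, chr14:20601674-20601823 for Csn2, chr14:20574472-20574621 for Csn1s2a and chr14:20545619-20545768 for Csn1s2b, the Csn2 gene on the plus strand and the others on the minus strand. Capitals mark the match to the motif.
Csn1s1: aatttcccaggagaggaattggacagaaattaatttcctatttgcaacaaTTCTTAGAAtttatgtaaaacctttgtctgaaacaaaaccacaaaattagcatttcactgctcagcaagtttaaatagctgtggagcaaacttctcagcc
Csn2: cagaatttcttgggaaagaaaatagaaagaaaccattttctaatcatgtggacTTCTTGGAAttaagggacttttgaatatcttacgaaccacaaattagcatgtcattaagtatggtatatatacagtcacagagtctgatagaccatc
Csn1s2a: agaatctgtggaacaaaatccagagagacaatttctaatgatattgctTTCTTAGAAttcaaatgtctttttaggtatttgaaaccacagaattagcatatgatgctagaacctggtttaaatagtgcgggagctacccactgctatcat
Csn1s2b: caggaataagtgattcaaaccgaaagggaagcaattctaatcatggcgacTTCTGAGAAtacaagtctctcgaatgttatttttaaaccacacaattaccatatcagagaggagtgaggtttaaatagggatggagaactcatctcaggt

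The match began at -100, -97, -102 and -100 bases from the start in Csn1s1, Csn2, Csn1s2a and Csn1s2b. The motif reads the same on both strands. It occurred within 250 bases before the start in 7 of the 18 genes of the milk list with a promoter in the RefSeq table. Of all 33469 promoters there, 7.67% held it in the same window, and 5.99% of those of the genes tested did. A match is a description of the letters and not a measured binding site.

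Epithelial genes were higher in SAT as a group. Of 27 tested genes of mammary and skin epithelium, 26 were called higher and 0 lower, with and without SAT 8, and all 26 had ranges that did not overlap. Their summed level was 2021 to 5772 CPM in SAT and 86.6 to 227 CPM in VAT, and the median log2 fold change was 5.74 (5.35 without SAT 8). In this list 1 gene was at 0 in all VAT libraries and could pass the low-count filter only through SAT. Areg, a growth factor of the mammary duct, read 54.2, 69.0, 62.4, 48.6 and 103 CPM in SAT. It had 3 counts over all VAT libraries, a ratio of 1015 (95% counting interval 347 to 4920). Krt17, a basal keratin, read 18.7 to 122 CPM in SAT and had 1 count in VAT, a ratio of 2078 (373 to 82060). Col17a1, of the hemidesmosome, read 61.3 to 211 CPM in SAT and 3.71 to 7.54 in VAT (4.47, SE 0.34, adjusted p = 7.19e-06). Elf5, the factor of milk-secreting cells, stands in the milk list and not in this one. It read 127 to 310 CPM in SAT and 0.265 to 1.33 in VAT (8.41, SE 0.47, adjusted p = 1.10e-06). The counting intervals cover counting error only.

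**Figure D2:**
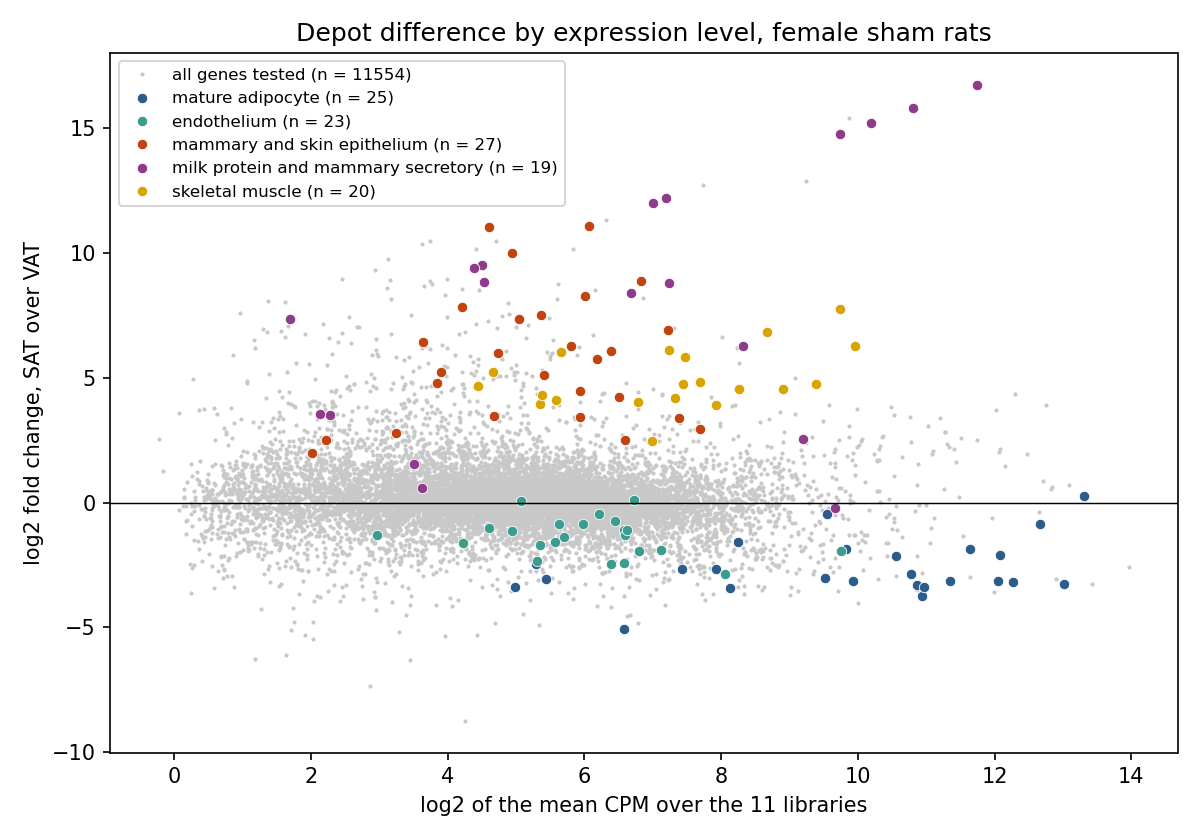
Log2 fold change of SAT over VAT against the log2 of the mean CPM over the 11 libraries, for 11554 genes tested, with 5 gene lists in colour. Genes at 0 in one depot are placed at their bound and genes with 1 to 3 counts there at the ratio of means. Milk genes reach farthest above 0, and nearly all adipocyte genes lie below 0 (21 of 25 called lower).

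Skeletal muscle genes were higher in SAT, with the widest spread between libraries. Of 20 tested, 16 were higher and 0 lower, also without SAT 8, while 0 of the 20 had ranges that did not overlap. Their sum was 423, 3320, 26241, 5704 and 20986 CPM in SAT 2, 6, 8, 10 and 12. In VAT it was 1611 CPM in VAT 8 and 80.8 to 110 in the other 5. The SAT libraries thus differed among themselves by more than the lowest SAT library differed from most VAT libraries. Fast troponin T (Tnnt3) read 32.6, 177, 858, 335 and 1059 CPM in SAT and 11 to 89.9 in VAT (3.89, SE 0.81, adjusted p = 0.00387). Muscle creatine kinase (Ckm) read 44.1, 362, 7234, 718 and 2470 CPM in SAT, 167 in VAT 8 and 0 to 0.502 in the other VAT libraries. It missed the threshold with all 11 libraries (6.27, adjusted p = 0.052) and passed it with the block (0.0086) and without SAT 8, VAT 4 and VAT 8 (0.000273). Skeletal actin (Acta1) read 84.4 to 4113 CPM in SAT, 317 in VAT 8 and 0 to 0.502 in the other VAT libraries, with an adjusted p of 0.109.

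Mesothelium genes went in both directions, and the list's summed level did not separate the depots: it was 1534 to 3679 CPM in SAT and 495 to 2096 in VAT. Wt1, the Wilms tumour factor that marks mesothelium, was at 0 in all 5 SAT libraries and at 27.9, 9.53, 51.9, 8.87, 47.0 and 64.1 CPM in VAT 2, 4, 6, 8, 10 and 12. It was at least 428-fold lower in SAT than in VAT, against the floor of 3 counts over the SAT libraries together. Tcf21, a visceral stromal factor, was also at 0 in all 5 SAT libraries and at 1.06 to 21.2 CPM in VAT, at least 164-fold lower. Wt1 and Tcf21 could pass the low-count filter only through VAT, so they could not come out higher in SAT. Mesothelin (Msln) read 2.90, 0.857, 25.2, 0.529 and 6.74 CPM in SAT and 19.2 to 386 in VAT (median 199). SAT 8 was the high SAT library and overlapped VAT 4, and the log2 fold change moved from -4.82 (SE 1.16, adjusted p = 0.00861) to -6.18 without SAT 8. Within VAT, libraries 4 and 8 were the lowest for Wt1, Msln, Nkain4, Cldn15 and Bnc1, the last named after its values were seen.

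Of 22 tested mesothelium genes, 8 were lower in SAT and 4 higher. It was 10 lower and 7 higher of 23 without SAT 8, and 6 lower and 3 higher with the block. Krt8, Krt18, Krt19 and Podxl were the higher ones, named here after their values were seen, and the keratins also stand in the epithelium list. Several of the 15 largest differences toward VAT were not in the list and had the same library pattern. Slc26a3, an anion exchanger, read 0 to 0.734 CPM in SAT and 2.17 to 45 in VAT. Tmem151a read 0 to 2.57 and 7.41 to 81.2 CPM, and Tm4sf4 read 0 to 1.35 and 2.78 to 35.8 CPM. VAT 4 and VAT 8 were the lowest VAT libraries for each of these 3 genes. Aldh1a2, which makes retinoic acid, read 0.529 to 3.74 CPM in SAT and 10.5 to 83.3 in VAT (-4.83, SE 0.71, adjusted p = 0.000402). Plod2, a collagen lysine hydroxylase, read 1.16 to 4.41 and 23.7 to 122 CPM (-4.89, SE 0.52, adjusted p = 4.56e-05).

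Positional and developmental genes split in both directions. Of 47 tested of 82 named, 14 were higher in SAT and 16 lower, with a median of -0.03. It was 16 higher and 21 lower of 51 without SAT 8, and 10 higher and 10 lower with the block. The Iroquois and AP-2 factors made up the large differences toward SAT. Irx1 read 164, 246, 93.9, 144 and 135 CPM in SAT and 0 to 1.19 in VAT (8.50, SE 0.63, adjusted p = 6.10e-06). Irx3 read 103 to 159 CPM in SAT and 0.836 to 6.41 in VAT (5.92, SE 0.51, adjusted p = 1.52e-05). Tfap2b read 90.4, 71.1, 9.25, 67.6 and 48.2 CPM in SAT and had 2 counts in VAT, a ratio of 1416 (95% counting interval 392 to 11690). Tfap2a read 8.32 to 49.8 CPM in SAT and had 1 count in VAT, a ratio of 1432 (257 to 56550). AP-2 and Iroquois factors are also known from mammary and skin epithelium, and the epithelial sum was higher in SAT in the same libraries; its part in these differences was not tested.

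**Figure D3:**
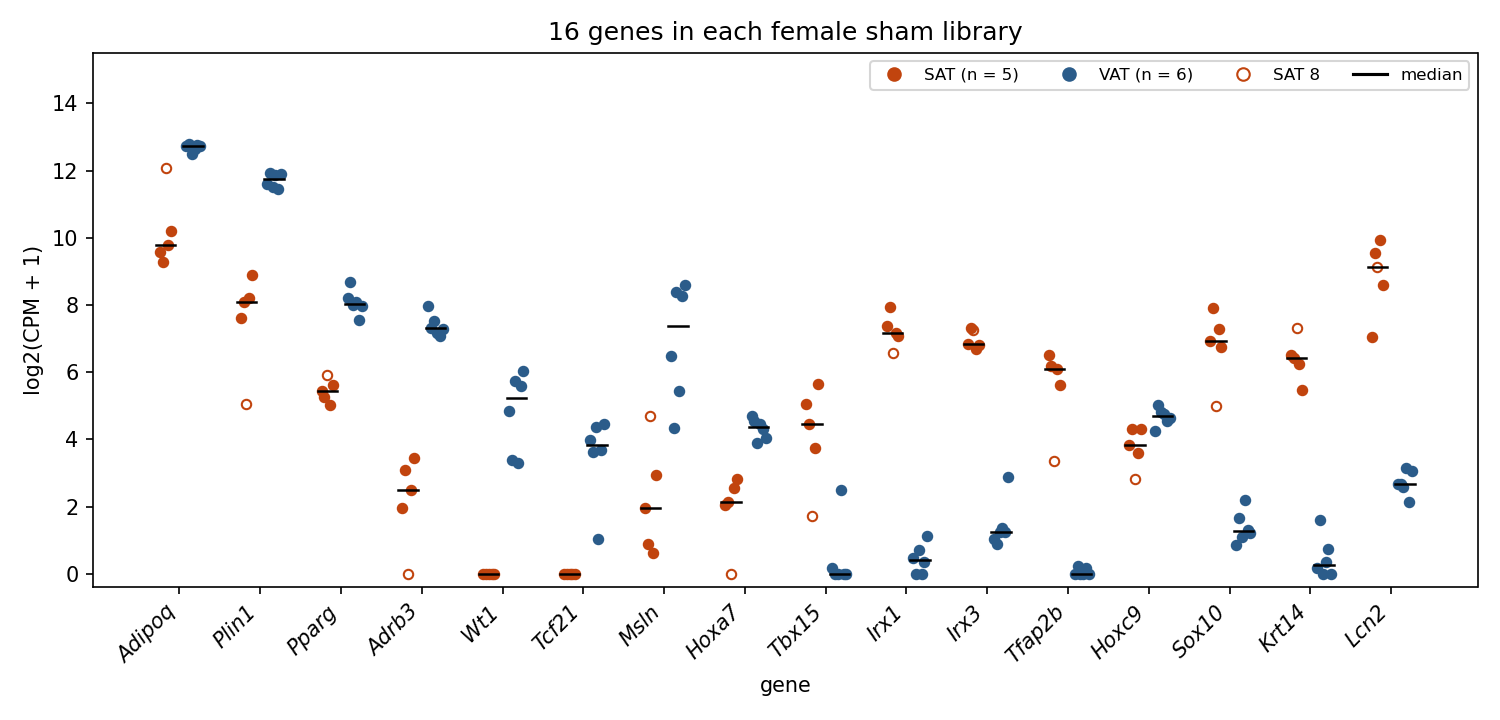
Expression of 16 genes as log2(CPM + 1) in each female sham library, with the median of each depot as a bar and SAT 8 as an open circle. Wt1 and Tcf21 sit at 0 in all 5 SAT libraries, Irx1 and Tfap2b are close to 0 in VAT, and the ranges of Msln and Tbx15 overlap between depots.

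The classic depot markers were less uniform. Tbx15, a subcutaneous fat factor, read 32.2, 20.9, 2.31, 12.5 and 49.2 CPM in SAT, 4.63 in VAT 8 and 0 to 0.133 in the other VAT libraries. SAT 8 and VAT 8 overlapped, and its log2 fold change of 4.83 (SE 1.24, adjusted p = 0.0121) lost its call with the block (0.065). Shox2, another subcutaneous marker, read 3.38, 5.88, 0, 4.44 and 7.59 CPM in SAT and 1.49 to 7.02 in VAT and was not called (0.53, adjusted p = 0.596). Hoxc9 read 13.2, 18.7, 6.01, 11.2 and 18.7 CPM in SAT and 18.1 to 31.4 in VAT (-0.87, SE 0.29, adjusted p = 0.038). Hoxc10 read 6.98 to 14.1 and 11.3 to 19.3 CPM (-0.75, SE 0.25, adjusted p = 0.0417). Both Hox genes overlapped between depots, and both lost their call with the block (0.12 for each). Hoxa7, named after its value was seen, had the ranges of 0 to 6.12 CPM in SAT and 13.9 to 25.1 in VAT (-2.43, adjusted p = 0.00804, and 0.066 with the block).

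Blood vessel endothelium was lower in SAT, and the list of smooth muscle and pericyte genes was mixed. Of 23 tested endothelial genes, 18 were lower and 0 higher, with a median of -1.32. Without SAT 8 all 23 were lower, and with the block 14 were lower and 0 higher. Their sum was 799 to 1829 CPM in SAT and 3299 to 3885 in VAT. Kdr, a receptor for vascular endothelial growth factor, read 41.7, 42.1, 41.4, 42.9 and 51.8 CPM in SAT and 118 to 196 in VAT (-1.93, SE 0.17, adjusted p = 1.67e-05). Of the genes named from the mixed list, Acta2, smooth muscle actin, was higher and read 338 to 722 CPM in SAT and 50 to 58.6 in VAT (3.20, SE 0.22, adjusted p = 4.51e-06). Cnn1, calponin, had a log2 fold change of 4.23. The pericyte genes Mcam and Cspg4 were lower (-3.55 and -2.75). Of the 17 genes of this list 8 were higher and 3 lower (8 and 4 without SAT 8, and 5 and 3 with the block). Acta2 and Cnn1 are also known from mammary myoepithelium. Lymphatic genes had 2 of 9 higher and 0 lower (4 and 0 without SAT 8), among them Reln at 33.8 to 64.4 CPM in SAT and 4.67 to 25.9 in VAT (2.22, SE 0.45, adjusted p = 0.00329). The called share of the lymphatic list was 22.2%, and 44.4% without SAT 8, against 30.7% and 49.9% over all genes.

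Stromal genes were mixed. Of 30 progenitor and fibroblast genes, 9 were higher in SAT and 5 lower (11 and 6 without SAT 8; 3 and 5 with the block). Fap, a fibroblast surface protease, read 57.5 to 110 CPM in SAT and 16.2 to 25 in VAT (2.13, SE 0.22, adjusted p = 3.88e-05). Zfp423, a factor that commits cells to the fat lineage, read 14.5 to 34.0 CPM in SAT and 71.2 to 150 in VAT (-2.32, SE 0.27, adjusted p = 7.44e-05). Of 32 collagen and matrix genes, 8 were higher and 4 lower (9 and 6 without SAT 8, and 5 and 6 with the block). Fibrillar Col1a1 and Col1a2, named after their values were seen, were among the higher ones, at 2.02 and 1.94. The basement membrane genes Col4a1 and Lama4 were lower (-2.15 and -1.73). Col5a3 had the largest difference of the list: 67.9 to 211 CPM in SAT and 1413 to 1974 in VAT (-4.04, SE 0.35, adjusted p = 1.45e-05). Col15a1 read 125 to 321 and 744 to 1770 CPM.

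Immune lists differed in how many of their genes were called. Of 25 macrophage genes, 2 were higher in SAT and 0 lower (3 and 0 of 26 without SAT 8), below the 17.2% called higher over all genes. These were Aif1 and Tyrobp, at 844 and 208 CPM in SAT 8 against 29.0 to 55.0 and 34.3 to 58.5 in the other SAT libraries. Without SAT 8 the adjusted p of Aif1 was 0.0565, and with the block neither was called. T and NK cell genes had 2 of 16 higher and 1 lower (2 and 1 of 17 without SAT 8), with Gzma at 3.26 to 6.24 CPM in SAT and 0 to 0.335 in VAT (4.81, SE 0.57, adjusted p = 8.51e-05). B and plasma cell genes had 0 of 11 higher and 2 lower (0 and 2 of 12 without SAT 8; 0 and 0 with the block). The B cell gene Ms4a1 did not pass the filter: it was at 23.2 CPM in VAT 8 and 39.6 in VAT 10, and at 0 to 0.533 in the other 9 libraries. Mast cell genes had 5 of 12 higher and 0 lower (6 and 1 without SAT 8; 2 and 0 with the block). Kit, the stem cell factor receptor, read 142, 401, 4.62, 207 and 287 CPM in SAT and 17.6 to 35.8 in VAT, with SAT 8 below every VAT library. Its call (3.11, SE 0.71, adjusted p = 0.00627) was lost with the block (0.15). Kit is also expressed in mammary epithelium, and its part in this difference was not tested.

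In the list of Schwann cell and nerve genes, 4 of 15 were higher in SAT and 2 lower (4 and 4 without SAT 8). Sox10, the factor of the glial lineage, read 121, 241, 31.0, 156 and 107 CPM in SAT and 0.800 to 3.57 in VAT (6.22, SE 0.56, adjusted p = 1.67e-05). Myelin basic protein (Mbp) went the other way, at 7.63 to 27.8 CPM in SAT and 89.0 to 130 in VAT (-2.25, SE 0.30, adjusted p = 0.0002). Sox10 is known from mammary epithelium too.

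Secreted factors and hormone genes were more often lower in SAT. Of 31 adipokine and secreted factor genes, 12 were lower and 2 higher (17 and 5 without SAT 8). Angptl8, an inhibitor of lipoprotein lipase activity in fat, read 11.2 to 56.6 CPM in SAT and 129 to 213 in VAT (-2.82, SE 0.43, adjusted p = 0.000486). Lipocalin 2 (Lcn2) was higher, at 132, 748, 560, 985 and 382 CPM in SAT and 3.39 to 7.94 in VAT (6.61, SE 0.51, adjusted p = 7.19e-06). Of 19 steroid hormone genes, 7 were lower and 3 higher (9 and 3 without SAT 8). The progesterone receptor (Pgr) read 7.96, 43.5, 10.6, 15 and 67.8 CPM in SAT, 8.49 in VAT 12 and 0.132 to 3.02 in the other VAT libraries (3.77, SE 1.00, adjusted p = 0.0148). Oestrogen receptor alpha (Esr1) read 17.4, 22, 0, 16.1 and 16.4 CPM in SAT and 21.9 to 70.4 in VAT. It was called without SAT 8 (-1.38, adjusted p = 0.00221) but not with it (-1.67, adjusted p = 0.0833). The growth hormone receptor (Ghr) read 46.7 to 317 and 689 to 1179 CPM (-2.20, SE 0.40, adjusted p = 0.00167). Star, the mitochondrial cholesterol carrier of steroid-making cells, read 11.8 to 17.5 CPM in SAT and 115 to 357 in VAT (-4.10, SE 0.29, adjusted p = 5.59e-06). Star stands in the ovary list, of which 7 of 29 named genes passed the filter, with 1 higher and 2 lower (the same counts of 8 tested without SAT 8).

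Retinoid genes were mixed. Of 26 tested, 5 were higher in SAT and 7 lower (6 and 12 without SAT 8). Among those higher were the binding proteins Crabp1 and Crabp2 and the uptake receptor Stra6: Crabp1 at 32.1 to 211 CPM in SAT and 0 to 1.85 in VAT (7.37), Crabp2 at 24.1 to 30.9 and 1.79 to 5.35 CPM (3.08), and Stra6 at 5.39 to 79.3 and 0.149 to 0.949 CPM (6.17). Rbp4, the carrier of retinol in blood, was lower at 182 to 877 CPM in SAT and 1128 to 1930 in VAT (-1.84, adjusted p = 0.00521), and was named after its values were seen. Retsat, a retinol saturase of adipocytes, was lower too, at 318 to 618 CPM in SAT and 2639 to 4133 in VAT (-2.83, SE 0.27, adjusted p = 1.96e-05). Wnt pathway genes were 6 higher and 6 lower of 27 (8 and 6 without SAT 8). The ligands Wnt4 (3.77) and Wnt5b (2.92) were higher, and the receptor Fzd4 (-2.82) and the secreted inhibitor Sfrp5 (-2.71) lower. Fzd4 read 59.0 to 220 CPM in SAT and 791 to 1134 in VAT. In the list of BMP, TGF-beta and activin genes, 6 of 31 were higher and 8 lower (8 and 13 of 32 without SAT 8). The receptor Acvr1c of this list was at -3.40 and its member Id2 at 1.87.

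Insulin and glucose uptake genes had 7 of 20 lower in SAT and 1 higher (11 and 5 without SAT 8; 3 and 1 with the block). Slc2a4, the insulin-responsive glucose transporter, read 43.8 to 82.9 CPM in SAT and 195 to 709 in VAT (-2.64, SE 0.34, adjusted p = 0.000172). Slc2a1, the transporter of most cells, was higher at 26.6 to 59.4 and 9.24 to 16.7 CPM (1.66, SE 0.25, adjusted p = 0.000478). The metallothioneins Mt1 and Mt2A, of the glucocorticoid response list, were higher: Mt1 read 164, 232, 116, 218 and 61.0 CPM in SAT and 5.37 to 13 in VAT (4.36, SE 0.39, adjusted p = 1.67e-05). That list had 4 of 21 higher and 7 lower (4 and 8 without SAT 8; 4 and 3 with the block). Of 26 xenobiotic and antioxidant genes, 2 were higher and 6 lower (3 and 12 without SAT 8). Ahr, the aryl hydrocarbon receptor, was one of the higher, at 39.9 to 78.3 CPM in SAT and 17.9 to 28.7 in VAT (1.36, SE 0.21, adjusted p = 0.00057). Interferon genes had 2 of 25 higher and 4 lower (3 and 9 without SAT 8; 0 and 3 with the block). Complement genes had 4 of 23 higher and 2 lower (5 and 5 without SAT 8), and clock genes 2 of 15 higher and 1 lower (3 and 2 without SAT 8). The called share was 30.8%, 24%, 26.1% and 20% for the xenobiotic, interferon, complement and clock lists, against 30.7% over all genes. Without SAT 8 it was 57.7%, 48%, 43.5% and 33.3%, against 49.9%.

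Cell cycle genes rested on 2 libraries. Of 21 tested, 8 were higher in SAT and 0 lower, with 12 higher without SAT 8. The list's sum was 1947 CPM in SAT 2 and 821 in SAT 8, against 115 to 148 in the other SAT libraries and 106 to 177 in VAT. Cdk1, the mitotic kinase, read 61.5, 4.77, 83.9, 2.12 and 1.47 CPM in SAT and 1.46 to 5.20 in VAT. With the block, 0 of 21 genes were called (edgeR), and without SAT 8, VAT 4 and VAT 8 1 of 20 was.

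Ribosomal protein genes were higher in SAT. Of 80 tested, 78 were called higher and 0 lower, with a median of 1.97. Without SAT 8 the same number, 78, was called with a median of 1.2, and with the block 40 were called. Their sum was 475642 CPM in SAT 8, 60713 to 80900 in the other SAT libraries and 28337 to 35236 in VAT. Rps6, of the small subunit, read 4243, 3955, 19240, 5175 and 4811 CPM in SAT and 1529 to 1906 in VAT (2.13, SE 0.43, adjusted p = 0.00299, and 1.40 without SAT 8). It was named after its value was seen. Rpl41, encoding the smallest of these proteins, reached 47640 CPM in SAT 8 against 921 to 1535 in the other SAT libraries and 438 to 650 in VAT. Its log2 fold change was 4.33 with SAT 8 and 1.2 without it.

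SAT 8 changed the direction of some genes. Zfp36l3 read 332 CPM in SAT 8 and 0.122 to 0.857 in the other SAT libraries, against 0 to 2.98 in VAT, and its log2 fold change went from 5.11 to -1.92 without SAT 8. Ndufb7, a subunit of complex I, read 1873 CPM in SAT 8 and 32.2 to 54.4 in the other SAT libraries, against 61.4 to 110 in VAT. Its value went from 2.40 (adjusted p = 0.102) to -0.88 (adjusted p = 0.00304). Slow troponin T (Tnnt1) read 265 CPM in SAT 8 and 0.490 to 3.06 in the other SAT libraries, and its call at 5.22 (adjusted p = 0.0365) became -0.05 (0.962). Of the genes called without SAT 8, 5730 were tested with all libraries, and 5530 of these had the same sign there. Of the 3544 genes called with all libraries, 3542 kept their sign without SAT 8. The exceptions were Tnnt1 and Ccdc152, a coiled-coil gene, which read 690 CPM in SAT 8 and 9.77 to 18.7 in the other SAT libraries (3.21 and -0.08).

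**Figure D4:**
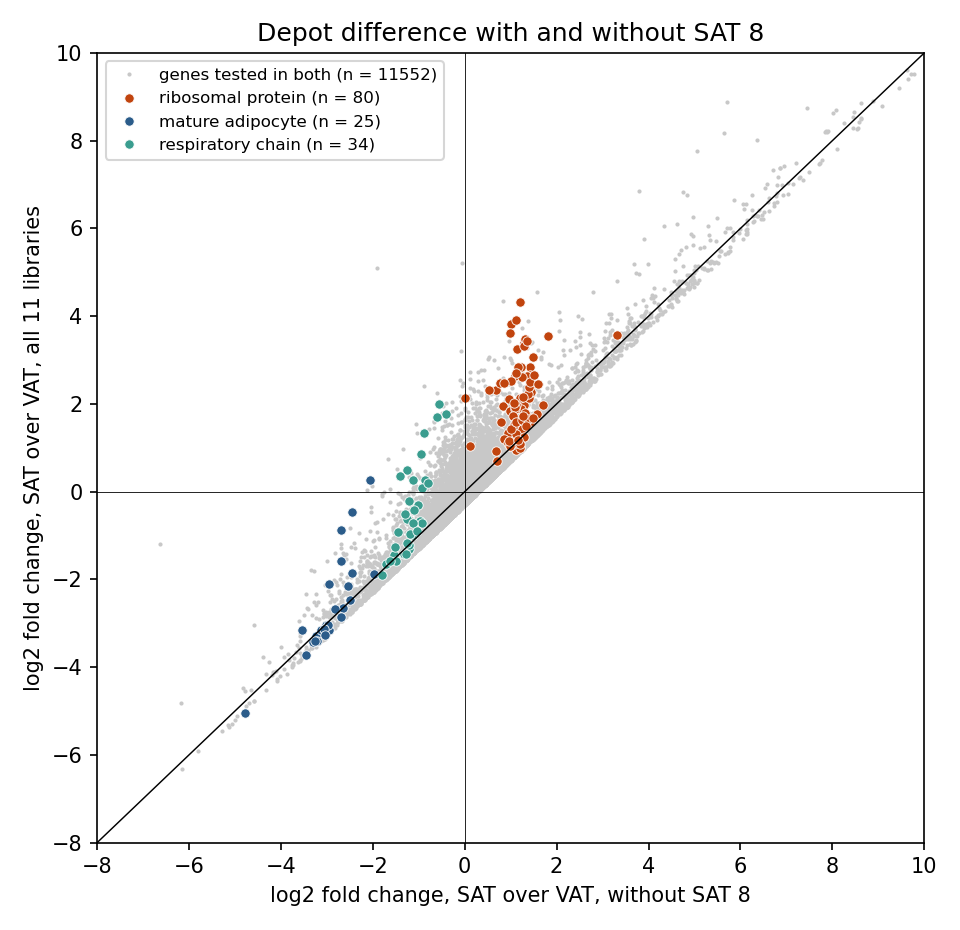
Log2 fold change of SAT over VAT with all 11 libraries against the same without SAT 8, for 11552 genes tested in both, with the diagonal as a line; 23 genes lie outside the axes. Ribosomal protein genes (median 1.97 and 1.2) and respiratory chain genes (median -0.69 and -1.19) have higher values with SAT 8 by these medians.

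Most of the genes called in sham females were called in the same direction in exposed females, whose libraries the baseline comparison did not use. In PCB 52 females 6824 of 11596 genes (58.8%) were called. Of the 3544 sham calls, 3473 were tested there and 3192 were called in the same direction, 91.9% of these and 47.8% of the PCB 52 calls tested in sham. 0 of the 3473 were called in the opposite direction. Without SAT 8, 5156 of 5746 sham calls tested were called in the same direction, 89.7% of these and 76.0% of the PCB 52 calls. All 25 adipocyte genes were lower (median -2.51), all 27 epithelial genes were higher and 21 of 23 endothelial genes were lower. Wt1 was called lower there too, and Irx1 higher. Tbx15 and Shox2, which were uncertain in sham females, were both called higher. Of the 80 ribosomal protein genes 73 were higher, with a median of 0.86. The test of the difference between treatments called 0 of 12129 genes (0%) by edgeR, with 1150 at an unadjusted p under 0.05 and 8 called by DESeq2. The smallest adjusted p by edgeR was 0.522.

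**Figure D5:**
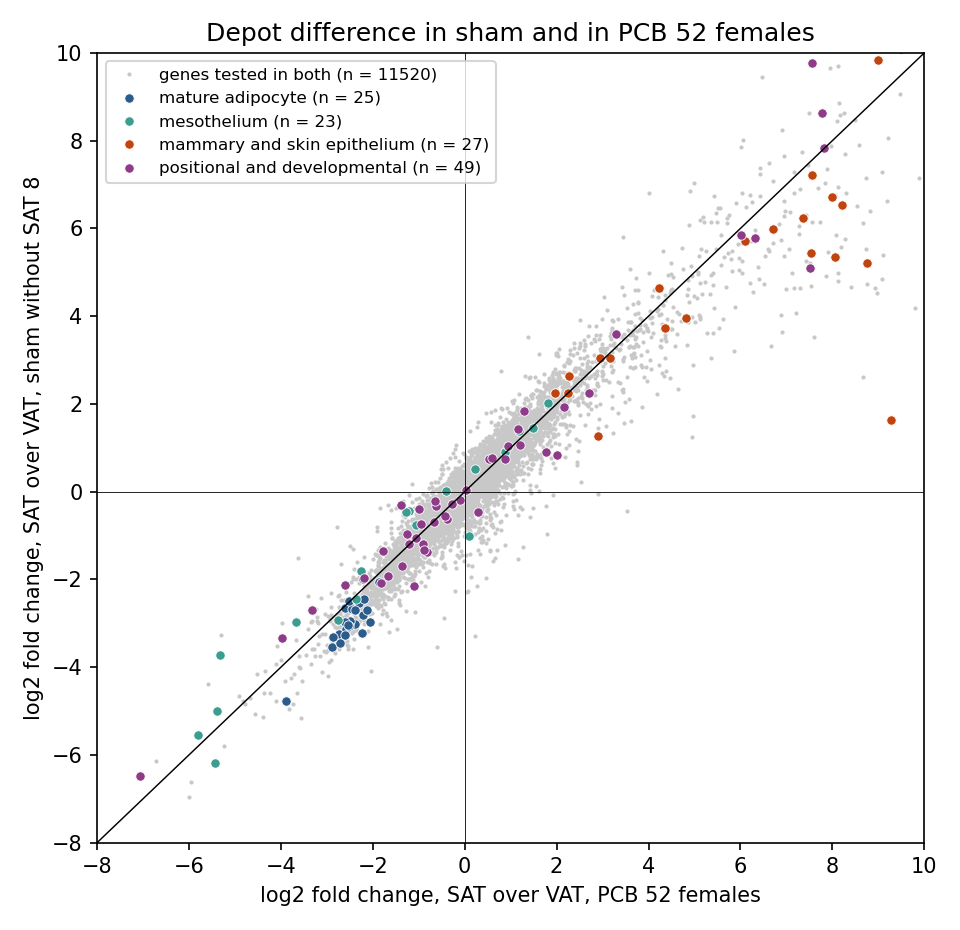
Log2 fold change of SAT over VAT in sham females without SAT 8 against that in PCB 52 females, for 11520 genes tested in both, with the diagonal as a line; 37 genes lie outside the axes. Adipocyte genes lie together below 0 and epithelial genes above 0 in both.

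The depot difference did differ between the sexes. With sham libraries of both sexes, the interaction of depot and sex called 1341 of 12086 genes (11.1%), 717 with a larger value in females and 624 with a smaller one, and 373 with the block. Age at the start differed with sex. The adipocyte list held 16 of 25 called genes, each with a lower SAT-over-VAT value in females. Aqp7 had a difference of -2.88 (adjusted p = 0.0107) and Acvr1c one of -3.26 (0.00083). Lipogenesis held 10 of 19, all lower, with Acss2 at -3.96 (0.00039). Of 28 epithelial genes, 9 were called, all higher in females, while 1 of 19 milk genes was. For ribosomal protein genes 57 of 80 were called higher. All of these list counts include SAT 8 and were not made without it. Without SAT 8 the interaction called 1831 genes, 857 with a larger value in females and 974 with a smaller one. The genes with the smallest p were Sult1d1, Acsbg1, Wnt5b, Sertad4, Irf4 and Slit2. Sult1d1, a sulfotransferase, had medians of 12.5 CPM in SAT and 0.475 in VAT in females, and of 6.85 and 26.2 in males. Irf4, a factor of lymphocytes and fat cells, had medians of 35.3 and 156 CPM in females and 52.6 and 8.31 in males. Acsbg1, an acyl-CoA synthetase, had medians of 2.28 and 0.328 CPM in females and of 0.340 and 79.8 in males.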

How the data were processed

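RNA was sequenced from about 100 mg of tissue per sample, with poly(A) capture or rRNA removal, per the labels' protocols, which do not say which was used. FastQC, HISAT2 and the rn6 build are named in the submitters' processing notes, and the counting program is not given in the sources used here. The authors deposited raw counts per gene, whole numbers for every gene used here. The deposited female VAT table was handled as estimated counts because the lines below its genes are not whole numbers, and no gene value needed rounding. The tables were joined by NCBI gene number over 15319 genes, of which 15230 matched a RefSeq symbol, and 5 lines without a gene (spreadsheet summaries) were dropped from the female VAT table.

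Each comparison was fitted with edgeR 4.0.16 in R 4.3.3: TMM scaling, the tool's filter on low counts by depot, robust quasi-likelihood tests and Benjamini-Hochberg adjustment over all genes tested at a threshold of 0.05. Alternatives were DESeq2 1.42.0, limma 3.58.1 (voom), other scalings and filters, a fit of all groups, a block on the title number and each library left out. Folds against a depot at 0 used a floor of 3 counts over its libraries together. On simulated data with all 11 libraries, 9.18% of 98 genes changed 2-fold and 69.7% of 99 changed 4-fold were recovered among 11477 genes. Without SAT 8 it was 48.5% of 99 and 92% of 100 among 11508. There were 3 false calls with all libraries and 10 without SAT 8. Far fewer genes were changed there than were called in the data. The adjusted p depends on that share, so these recoveries do not carry over to the real comparison.

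Equal title numbers were read as the same rat, though the labels do not say so in words. The libraries of the series carry 24 different title numbers. Deviations from the group means correlated by 0.0212 to 0.204 in the 5 equal-numbered pairs (3 over 0.1) and by -0.201 to 0.202 in the 25 other pairs. The p-values rest on the spread between these libraries, which were taken as independent in every fit but those with the block. The libraries and gene lists were chosen with earlier results of these data known. Genes were named by rule: the 15 largest differences each way with no overlap between depots and a mean of at least 5 CPM, up to 4 genes per list by p, the 8 moving most each way without SAT 8, the 6 smallest p per interaction, and a fixed set of depot and cell type markers. Not all of them are printed.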

Additional observations from a re-analysis of the deposited data

Results flagged for a closer look

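Of 120 values tested for a sample far from its group, 30 stood out. The 120 values are not independent, so this count cannot be set against a chance rate. SAT 8 held most of the outlying values in SAT: 4316 CPM for Adipoq, 458 for Lep, 25.2 for Msln and 0 for Esr1. It also stood out with 4211 genes at 0 and 27.8% of counts in ribosomal protein genes. Its summed CPM stood apart for mature adipocyte (78593), adipokine (58464), complement (51213), fatty acid oxidation (3280), respiratory chain (18229) and ribosomal protein genes (475642). The same held for its sums of mesothelium (3679), Schwann cell (2542), lymphatic (1821) and kidney, adrenal and pancreas genes (1022). Cfd stands in the adipocyte, adipokine and complement lists, and its high level in SAT 8 makes up most of each of their sums there. SAT 6 was low for interferon genes (735 CPM) and SAT 12 high for steroid hormone genes (1331 CPM).

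In VAT, library 8 was far from the others for Tbx15 (4.63 CPM), Ckm (167), Acta1 (317) and the sum of skeletal muscle genes (1611). VAT 4 stood apart for Shox2 (7.02 CPM) and for the sums of mature adipocyte (111893), lipolysis (39888), fatty acid oxidation (8868), respiratory chain (19192) and retinoid genes (7172). VAT 12 did so for Pgr (8.49 CPM) and complement genes (22908).

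The depot difference differed between females and males for 1341 genes by the interaction term. Its log2 size, female minus male, was 7.001 for Sult1d1, 10.63 for Acsbg1, 5.03 for Wnt5b, 2.55 for Sertad4, -5.86 for Irf4 and 4.39 for Slit2.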

How the results depend on the processing

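The count of genes called in sham females was 3544, and 2949 to 4187 under other scalings, filters and tools. It was 1117 when a fold above 2 was required, 1950 with the title number as a block and 6238 with all 12 groups in 1 fit. Leaving out 1 library gave 2803 (VAT 2) to 5860 (SAT 8). Without SAT 8 a fold above 2 gave 1643, and leaving out a further library 5287 to 6103. The interaction with treatment called 8 genes by DESeq2, and 0 to 1 with a library left out, the 1 without SAT 12. The interaction with sex called 373 with the block, and 929 to 1831 with a library left out. Of 205 named genes with a fold change, 10 reversed in some alternative. By limma voom these were Zfp36l3 (-0.0238), Fgfr3 (-0.25), Map3k1 (-0.43) and Pdk4 (-0.20). With the block they were Zfp36l3 (-1.11) and Ndufb7 (-0.055). Without SAT 8, VAT 4 and VAT 8 they were C1qa (-0.045), Clec10a (-0.073), Zfp36l3 (-2.32), Ndufb7 (-0.75), Ccdc152 (-0.0066) and Akap1 (0.30). With each library left out, the ranges were -1.92 to 5.42 for Zfp36l3, -0.055 to 5.54 for Tnnt1, -0.88 to 2.70 for Ndufb7, -0.077 to 3.50 for Ccdc152 and -0.31 to 0.20 for Akap1. The cause was not tested. Depth limits single libraries to levels above 0.358 to 0.464 CPM before TMM scaling.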
